A study of Mus musculus with 7 samples.

Results

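The genes of duodenal iron handling followed here were chosen by symbol, and all 10 were found among the 22987 genes of the deposited table: Cybrd1, Slc11a2, Slc46a1, Slc40a1, Heph, Tfrc, Fth1, Ftl1, Hmox1 and Epas1. RNA came from scrapings of the duodenal lining of C57BL/6 mice aged 6 weeks. There were 4 libraries from mice labelled Nlrc4-T337S, which carry a changed form of the inflammasome protein Nlrc4 (the series title gives both copies as changed), and 3 from wild-type mice, with no treatment named for either. Each member is given by genotype and by the level of S100g in the same library. S100g encodes calbindin-D9k, a calcium-binding protein of duodenal enterocytes. Its level was 12.6, 11.2, 19.2 and 19.8 RPKM (reads scaled for the length of the gene and the mapped reads of the library) in Nlrc4-T337S replicates 1 and 2 and wild-type replicates 1 and 2. It was 2395, 1346 and 2376 RPKM in Nlrc4-T337S replicates 3 and 4 and wild-type replicate 3. The threshold of 100 RPKM therefore put 4 libraries in a low level and 3 in a high level, each holding both genotypes. These levels come from a measured gene, are not groups of the study and were not tested against each other. They coincide with the order of the libraries in the table and with odd and even numbers in the library titles, whose meaning is not stated.

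Dietary iron enters the enterocyte from the gut lumen, is stored in ferritin or passed on, and leaves through a single exporter at the basolateral membrane. In the duodenum, where most iron is absorbed, the transcription factor encoded by Epas1 drives several of these genes when iron is short. Another layer of control acts on the RNA: iron regulatory proteins bind hairpins called iron-responsive elements, which block translation when they lie ahead of the coding sequence and protect the RNA from decay when they lie behind it. An RNA level therefore need not follow the protein for ferritin or the exporter.

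These hairpins are shown because the iron regulatory proteins are known to bind them in the RNA of both ferritin chains, the exporter and the transferrin receptor. The reference transcripts of the 10 members were searched on the sense strand for a C, 5 bases, the loop CAGTGN and 5 more bases, where N was not G and all 5 bases on either side of the loop could pair, G with T allowed. Of 22611 protein-coding genes, 204 (0.9%) held such a stem-loop, and 4 of the 10 members did. The capitals mark the loop, and each run starts at the unpaired C. Positions are on NCBIM37, the assembly that mm9 names.
Fth1 5′ UTR, chr19:10057228-10057244, plus strand: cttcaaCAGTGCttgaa
Ftl1 5′ UTR, chr7:52715155-52715171, minus strand: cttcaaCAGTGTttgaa
Slc40a1 5′ UTR, chr1:45982316-45982332, minus strand: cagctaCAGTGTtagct
Tfrc 3′ UTR, chr16:32631311-32631327, plus strand: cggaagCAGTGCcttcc
Tfrc 3′ UTR, chr16:32631690-32631706, plus strand: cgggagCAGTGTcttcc
Tfrc 3′ UTR, chr16:32631755-32631771, plus strand: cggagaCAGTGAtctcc
Tfrc 3′ UTR, chr16:32631802-32631818, plus strand: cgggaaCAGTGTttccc
Both ferritin chains carried the same paired bases on either side of the loop. Tfrc held 4 copies, all behind its coding sequence. For the other 6 members these letters were not in the transcripts searched, which says nothing of other forms of the element. Epas1 and some transcripts of Slc11a2 are also known to carry iron-responsive elements, which this search did not find.

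Between 45032119 and 95732587 reads per library passed quality control, the mapped share was 84.2% to 97.1%, and a single read in a gene of 1 kilobase equalled 0.0124 to 0.0251 RPKM. Position and enterocyte genes were set beside the tissue label. Gata4, a factor of the proximal small intestine, was at 13.0 to 19.1 RPKM and Vil1, a brush border protein, at 668 to 887, while the ileal bile acid carrier Fabp6 was at 0.0243 to 0.0987. These genes mark no place within the proximal small intestine, so they cannot tell the duodenum from the rest of it. Pdx1, a factor of the proximal duodenum, did differ by S100g level: 1.66, 0.430, 2.44 and 3.53 RPKM in the 4 low libraries and 10.9, 12.0 and 16.6 in the 3 high ones.

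Of the 10 members, 6 were higher in every library of high S100g than in any library of low S100g, and 0 were lower in this way. Over the 10987 tested genes, 2.91% were higher and 4.87% lower without overlap. The members were chosen with earlier results of these data known, so their count beside these shares is a description only. The 6 were Cybrd1, Slc40a1, Fth1, Slc11a2, Epas1 and Slc46a1. Heph, Ftl1, Tfrc and Hmox1 overlapped between the levels. In bulk RNA, fewer cells of a type and less RNA per cell cannot be told apart. The part of the differing Pdx1 level in these results was not tested.

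**Figure D1:**
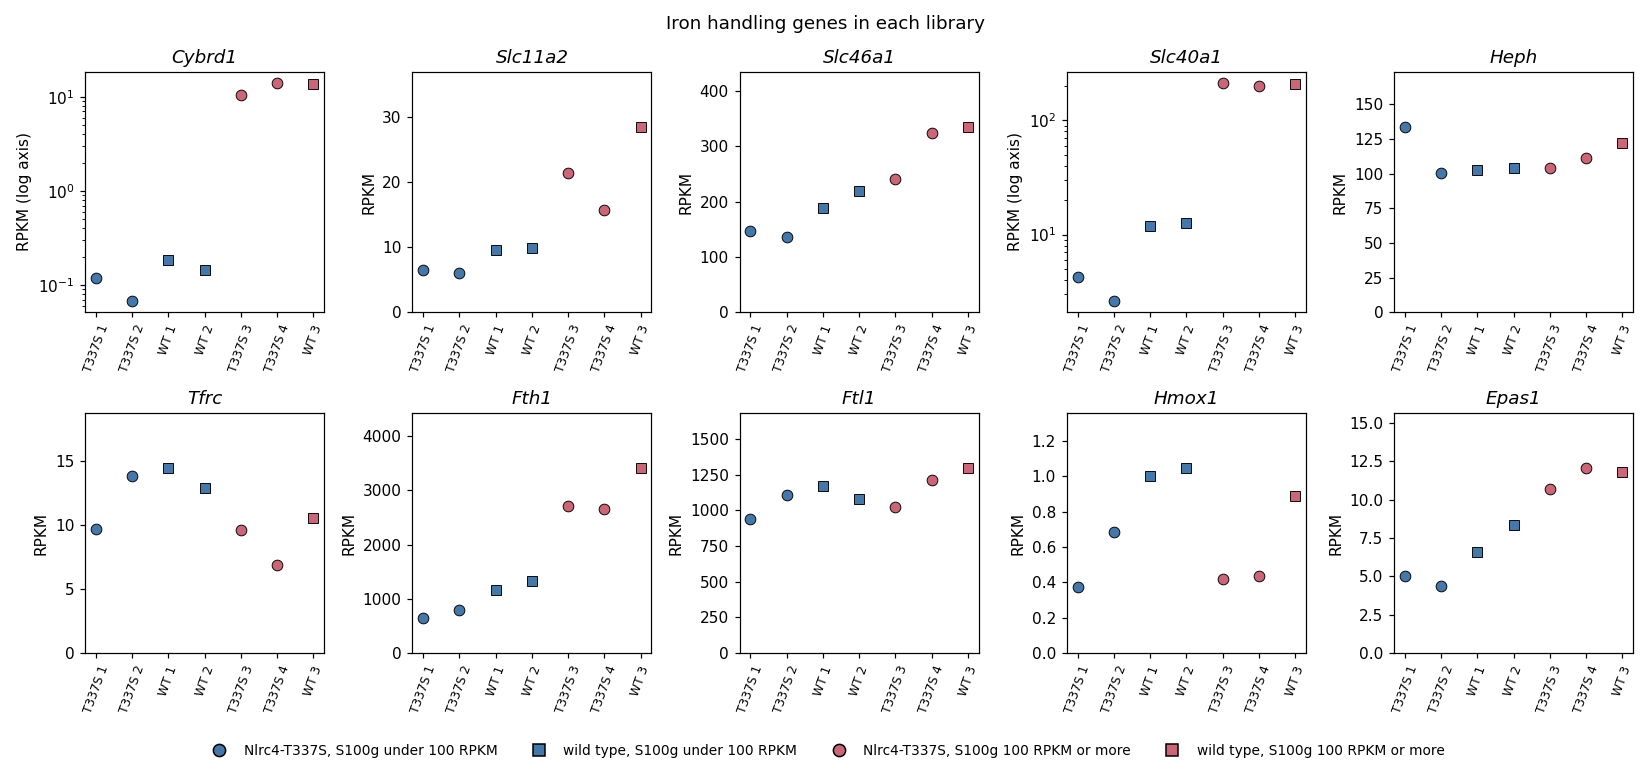
RPKM of the 10 iron handling genes in each of the 7 libraries, circles for Nlrc4-T337S and squares for wild type, blue for S100g under 100 RPKM and red for 100 or more. Cybrd1 and Slc40a1 are on log axes. Cybrd1 lies at 0.0676 to 0.184 RPKM in the blue libraries and 10.4 to 14.0 in the red ones, while those of Heph and Ftl1 overlap between the colours.

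Of the uptake genes, Cybrd1 (chromosome 2, 70955980 to 70980983, mm9) encodes duodenal cytochrome b, which reduces dietary iron at the brush border. It stood at 0.118, 0.0676, 0.184 and 0.145 RPKM in the low libraries (Nlrc4-T337S replicates 1 and 2, then wild-type replicates 1 and 2). It stood at 10.4, 14.0 and 13.6 in the high ones (Nlrc4-T337S replicates 3 and 4, then wild-type replicate 3). Both genotypes were thus near the floor in one level and well expressed in the other. The lowest high library was 56.3 times the highest low library.

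Slc11a2 (chromosome 15, 100218329 to 100255503) encodes DMT1, the carrier that brings reduced iron into the cell. Its levels were 6.44, 6.03, 9.52 and 9.90 RPKM in the low libraries and 21.4, 15.8 and 28.5 in the high ones, in the same library order. The lowest high value was 1.60 times the highest low value, a far narrower separation than for Cybrd1. Slc46a1 (chromosome 11, 78279199 to 78285447), a proton-coupled folate carrier that was also described as a heme carrier, was at 146, 136, 188 and 219.9 RPKM in the low libraries and 242, 324 and 334 in the high ones. Here the levels separated narrowly, at 1.098 times.

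The exporter Slc40a1 (chromosome 1, 45964915 to 45982439), ferroportin, is the route by which iron leaves the enterocyte. It was at 4.28, 2.61, 11.8 and 12.8 RPKM in the low libraries and 214, 200.3 and 208 in the high ones. The 3 high libraries lay within a narrow band whatever their genotype, and the lowest of them was 15.7 times the highest low library. Within the low level both Nlrc4-T337S libraries lay under both wild-type libraries. Heph (chromosome X, 93650698 to 93769824) encodes hephaestin, the copper oxidase that oxidises iron as it leaves the cell beside ferroportin. Its levels were 133, 100.3, 103 and 104 RPKM in the low libraries and 104, 112 and 122 in the high ones. Hephaestin RNA overlapped between the levels where its partner's did not, and the ratio of Slc40a1 to Heph RPKM was 0.0260 to 0.123 in the low libraries and 1.71 to 2.05 in the high ones.

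The separation was ranked for every tested gene as the lowest high library minus the highest low library on the log2(RPKM + 0.5) scale. S100g, which set the levels, ranked 1 of 10987 genes at 6.05, Cybrd1 ranked 2 at 3.99 and Slc40a1 ranked 3 at 3.92. Fth1 ranked 20 at 1.01, Slc11a2 ranked 36 at 0.65, Epas1 ranked 66 at 0.34 and Slc46a1 ranked 142 at 0.13. A value below 0 means overlap in this ranking, as for Ftl1 at -0.19, Heph at -0.35, Hmox1 at -0.75 and Tfrc at -1.01. Cybrd1 lay at 0.0676 to 0.184 RPKM in the low libraries, under the added 0.5, so the order at the top depends on that value. The ranks describe these libraries and were not tested.

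**Figure D2:**
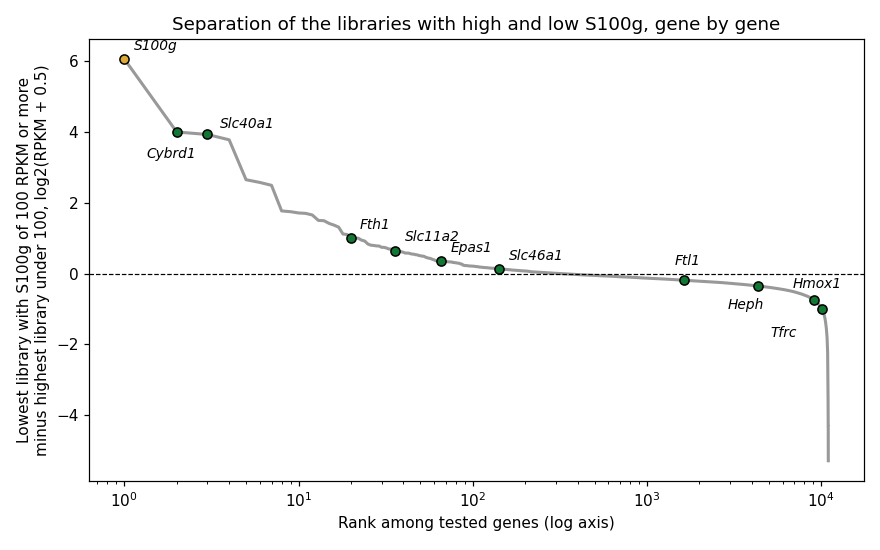
Separation between libraries of high and low S100g for 10987 tested genes, as the lowest high library minus the highest low library in log2(RPKM + 0.5), against rank on a log axis. The grey line is all tested genes, green points are the iron handling genes and the yellow point is S100g, and points above the dashed line at 0 do not overlap between levels: Cybrd1 and Slc40a1 follow S100g at 3.99 and 3.92.

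The genes nearest to Cybrd1 and to Slc40a1 over the 7 libraries were found by the root mean square difference of log2(RPKM + 0.5), each gene centred on its own mean, among 9580 other genes with a mean of at least 1 RPKM. Trpv6, the apical calcium channel of the duodenum, was nearest to both, at 0.34 from Cybrd1 and 0.75 from Slc40a1. It was listed at 0 in Nlrc4-T337S replicates 1 and 2 and stood at 0.0129 and 0.0148 RPKM in wild-type replicates 1 and 2, against 11.7, 6.53 and 11.2 in the high libraries. Next to Cybrd1 came Ugt2b38, a glucuronosyltransferase, at 0.65, Ctse, the protease cathepsin E, at 0.71, Tnni1, a troponin subunit, at 0.97 and Ces2b, a carboxylesterase, at 0.98. Next to Slc40a1 came the alkaline phosphatase Akp3 at 0.92, Ugt2b38 at 1.00, Slc16a9, a carrier of the monocarboxylate family, at 1.12 and Ctse at 1.13. Akp3 was at 2.73 to 121 RPKM in the low libraries and 721 to 1413 in the high ones.

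Among the storage genes, Fth1 (chromosome 19, 10057193 to 10059582) encodes the ferritin heavy chain, which oxidises iron for storage. It was at 651, 794, 1169 and 1323 RPKM in the low libraries and 2720.3, 2659 and 3408 in the high ones. Ftl1 (chromosome 7, 52713314 to 52715254) encodes the light chain, which helps form the mineral core. Its levels were 939.95, 1105, 1169.5 and 1079 RPKM in the low libraries and 1027, 1214 and 1295 in the high ones. The heavy chain RNA separated the levels and the light chain RNA overlapped. Their ratio, free of the depth of each library, was 0.693, 0.718, 1.000 and 1.23 in the low libraries and 2.65, 2.19 and 2.63 in the high ones. Ferritin genes have processed copies elsewhere in the genome, and how reads matching several copies were counted is not stated in the sources used here, so both levels are uncertain. Ncoa4, the receptor that delivers ferritin to lysosomes, was named after its values were seen. It was at 99.9, 73.4, 101 and 119 RPKM in the low libraries and 294, 294 and 415 in the high ones, and so separated as Fth1 did.

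**Figure D3:**
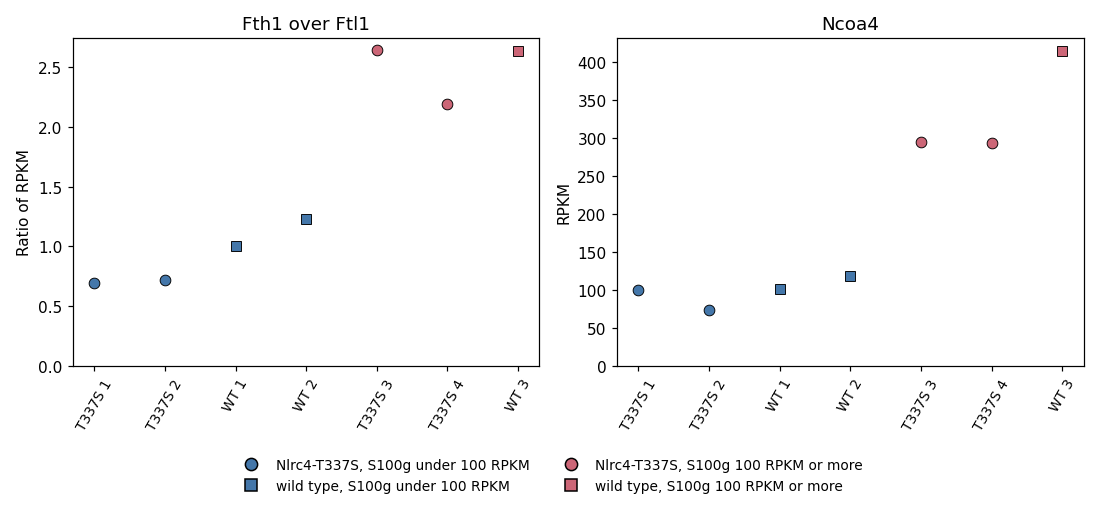
Ratio of Fth1 to Ftl1 RPKM (left) and RPKM of Ncoa4 (right) in each library, with circles for Nlrc4-T337S, squares for wild type, blue for S100g under 100 RPKM and red for 100 or more. The ratio lies at 0.693 to 1.23 in the blue libraries and 2.19 to 2.65 in the red ones.

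Tfrc and Hmox1 did not separate the levels. Tfrc (chromosome 16, 32609006 to 32632880) encodes transferrin receptor 1, which dividing crypt cells use to take up iron from transferrin. It was at 9.65, 13.8, 14.4 and 12.9 RPKM in the low libraries and 9.60, 6.90 and 10.5 in the high ones, mostly lower in the latter with overlap at Nlrc4-T337S replicate 1. Most of the summed level of 9 crypt proliferation markers came from Pcna, at 44.7 to 62.0 RPKM. The 9 markers summed to 57.7 to 94.96 RPKM in the low and 51.8 to 88.4 in the high libraries. Among them Mki67, a gene of dividing cells, was at 1.00 RPKM in Nlrc4-T337S replicate 1, against 2.89 to 2.99 in the other low libraries. In the high libraries it was at 1.08 and 1.46 RPKM in Nlrc4-T337S replicates 3 and 4 and 2.96 in wild-type replicate 3. The part of crypt content in the Tfrc level was not tested. Hmox1 (chromosome 8, 77617490 to 77624495), the inducible heme oxygenase that frees iron from heme, was the lowest member apart from Cybrd1 in the low libraries. Its levels were 0.371, 0.687, 0.9996 and 1.04 RPKM in the low and 0.421, 0.435 and 0.890 in the high libraries.

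Epas1 (chromosome 17, 87153247 to 87232750) encodes HIF-2 alpha. It was at 5.01, 4.39, 6.59 and 8.34 RPKM in the low libraries and 10.7, 12.1 and 11.8 in the high ones, the lowest high library being 1.29 times the highest low one. Epas1 is also an endothelial gene. The 5 endothelial markers summed to 1.06 to 4.67 RPKM in the low and 1.03 to 2.097 in the high libraries, with overlap. By genotype they summed to 1.03 to 2.0994 RPKM in Nlrc4-T337S and 2.0968 to 4.67 in wild type, with a narrow overlap. The median log2 difference of the 2 tested was -0.96, and 0 passed. The part of endothelium in the Epas1 level was not tested. Among the other genes of the hypoxia-inducible factor system, Hif1a, the sister of Epas1, went the other way, at 15.1 to 19.7 RPKM in the low and 10.7 to 14.1 in the high libraries. Of 10 target genes listed for hypoxia-inducible factors, Ankrd37 and Car9 were higher without overlap in the high libraries and Bnip3 was lower. Over all tested genes 2.91% were higher and 4.87% lower in this way.

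The order of the members by RPKM, which is scaled for gene length, also differed by level. In the low libraries Fth1 and Ftl1 overlapped at the top. Slc46a1 and Heph followed without touching, the lowest Slc46a1 value being 136 and the highest Heph value 133. Slc40a1, Slc11a2, Tfrc and Epas1 lay in a band from 2.61 to 14.4 RPKM, in which each overlapped the others except that the lowest Tfrc value, 9.65, was above the highest Epas1 value, 8.34. Hmox1 and Cybrd1 were last and did not overlap. In the high libraries Fth1 led Ftl1 without overlap, Slc46a1 came next, and Slc40a1 stood above Heph. Slc11a2 was above the 3 members Cybrd1, Epas1 and Tfrc, of which Cybrd1 overlapped both others, while the highest Tfrc value, 10.5, was under the lowest Epas1 value, 10.7.

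The comparison of genotypes asks how the duodenal lining of Nlrc4-T337S mice differs from wild type. Over all 7 libraries 0 of the 10 members passed by limma with Benjamini-Hochberg adjustment at 0.05, where 0.300% of the 10987 tested genes were called higher in Nlrc4-T337S and 0.592% lower. Of the members, 1 had an unadjusted p under 0.05, where 22.2% of tested genes did. Nothing in the labels states that the libraries are separate animals, so a p here reflects how much the libraries vary, which may be technical. The median log2 difference of the members was -0.25, beside -0.15 for all tested genes. For the genes that separate the S100g levels, the interval was wide: Slc40a1 differed by -0.20 on the log2(RPKM + 0.5) scale (95% interval -4.09 to 3.69) and Cybrd1 by 0.57 (-2.77 to 3.91). The SD within a genotype exceeded the mean for Slc40a1, at 105 ± 118 RPKM over the Nlrc4-T337S libraries (SD, n = 4) and 77.5 ± 113 over wild type (SD, n = 3).

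Hmox1 was the member that separated by genotype. Its 4 Nlrc4-T337S libraries stood at 0.371 to 0.687 RPKM and its 3 wild-type libraries at 0.890 to 1.04, without overlap. Over all tested genes 17.3% were lower in this way and 1.97% higher. The means were 0.478 ± 0.142 (SD, n = 4) and 0.978 ± 0.0797 (SD, n = 3). The log2 difference was -0.60 (SE 0.14, 95% interval -0.91 to -0.30) and did not pass over all genes (limma adjusted p = 0.0851). It passed without Nlrc4-T337S replicate 2 (adjusted p = 0.00875), the library with the fewest reads, where over all genes 74 were called higher and 1280 lower. Hmox1 is also made by macrophages that clear heme. The 8 macrophage markers in the table summed to 17.6 to 73.1 RPKM in Nlrc4-T337S against 58.9 to 104 in wild type, none of the 7 tested passed, and Mrc1, the mannose receptor, had the smallest p among them (0.443 ± 0.174 against 1.23 ± 0.348 RPKM, limma adjusted p = 0.0733). Among the Nlrc4-T337S libraries, replicate 2 was highest for each of these macrophage markers except Cd163. Its C1qa, for example, was at 21.8 RPKM, against 4.90 to 13.1 in the others of that genotype. The summed erythroid, fibroblast and smooth muscle markers were also lower in Nlrc4-T337S, without overlap. The part of these cells in the Hmox1 level was not tested.

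With the S100g level as a term in the model, the intervals narrowed for every member except Heph and Hmox1, and 0 of 10 members passed, where 0.391% of tested genes were called higher and 0.956% lower. Of the members, 6 had an unadjusted p under 0.05, beside 23% of tested genes, and all 6 were lower in Nlrc4-T337S. Slc11a2 differed by -0.61 (SE 0.12, 95% interval -0.88 to -0.34, limma adjusted p = 0.0551), Fth1 by -0.61 (SE 0.15, adjusted p = 0.0962) and Hmox1 by -0.58 (SE 0.14, adjusted p = 0.0940). Slc40a1 differed by -1.04 (SE 0.33, adjusted p = 0.142), Slc46a1 by -0.42 (SE 0.14, adjusted p = 0.147) and Epas1 by -0.39 (SE 0.15, adjusted p = 0.184). For Cybrd1, at -0.16 (95% interval -0.47 to 0.14), Tfrc, at -0.28 (-0.64 to 0.08), Ftl1, at -0.17 (-0.46 to 0.12), and Heph, at 0.03 (-0.27 to 0.32), the interval held 0. With the term and median-of-ratios scaling, 4 members had an unadjusted p under 0.05, beside 19.7% of tested genes. That scaling moves the median of all genes by over 0.1.

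**Figure D4:**
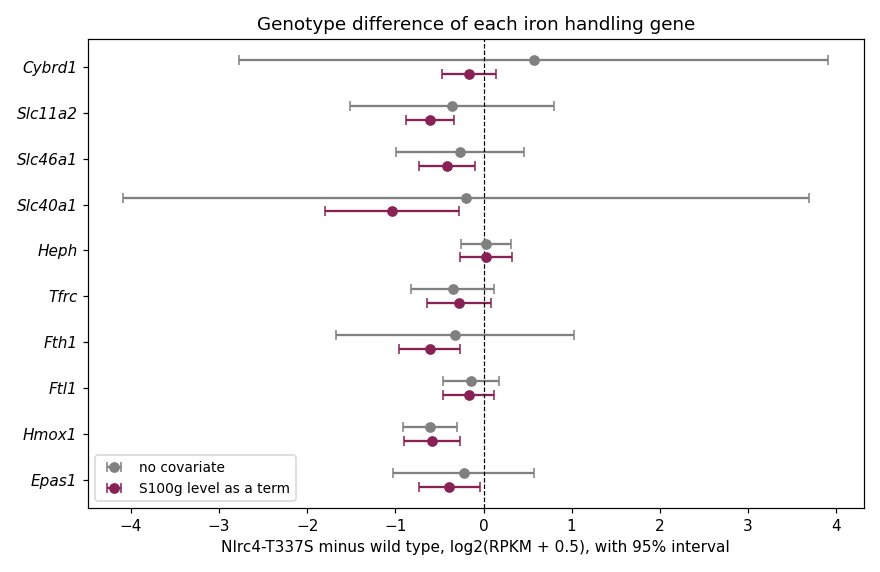
Difference between Nlrc4-T337S and wild type for each iron handling gene in log2(RPKM + 0.5), with 95% limma intervals, without a covariate (grey) and with the S100g level as a term (purple). The intervals of Slc40a1 and Cybrd1 narrow most, from -4.09 to 3.69 to -1.80 to -0.28 for Slc40a1.

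Within both S100g levels, Fth1, Hmox1, Slc11a2 and Slc46a1 had lower values in all Nlrc4-T337S libraries than in the wild-type libraries of the same level. These are 4 of 10 members, beside 26.4% of tested genes, and 0 members were higher in this way, beside 4.17%. Slc40a1 differed between genotypes by -1.73 on the log2(RPKM + 0.5) scale in the low libraries and by -0.01 in the high ones. The test of that difference gave an interaction of 1.72 (95% interval 0.97 to 2.47), with limma adjusted p = 0.831 over all genes, and so did not pass. Over all tested genes 0.0637% passed that test. In the high level the wild-type group is 1 library, assumed to vary like the others.

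Single libraries decided whether any member passed in the model with the S100g level. Leaving out each library in turn, 2 members passed without Nlrc4-T337S replicate 2: Hmox1 (adjusted p = 0.0173) and Slc11a2 (adjusted p = 0.0309), in a fit that called 12.75% of all genes. Slc11a2 also passed without Nlrc4-T337S replicate 3 (log2 difference -0.68, adjusted p = 0.0473), in a fit that called 0.58% of all genes. Slc40a1 passed without wild-type replicate 3, when only the low libraries compare the genotypes (-1.73, SE 0.20, adjusted p = 0.0301), in a fit that called 0.41% of all genes. All these differences were lower in Nlrc4-T337S.

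Other genes of iron metabolism were taken from lists chosen with earlier results of these data known. Hfe, a class I-like protein that binds transferrin receptor 1 and is mutated in hereditary hemochromatosis, fell in Nlrc4-T337S. It was at 0.645, 1.20, 0.800 and 1.05 RPKM in the 4 Nlrc4-T337S libraries by replicate number and 2.17, 2.52 and 2.24 in the 3 wild-type ones, with no overlap. The log2 difference was -0.99 (SE 0.15, limma adjusted p = 0.0250, and 0.0297 with the S100g level as a term). Hfe was the 1 gene called lower of 3 tested in the list of systemic iron sensing and serum iron proteins, beside 0.592% of all tested genes called lower, and 0 were called higher. Leaving out 1 library kept the direction with adjusted p = 0.00484 to 0.161, and the call was lost when any 1 library other than Nlrc4-T337S replicate 2 was left out. Hfe is made by macrophages as well as by epithelium, and the part of the macrophage, erythroid and stromal markers in its level was not tested. Hepcidin RNA (Hamp) was at 0 to 0.183 RPKM.

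In the other iron lists 0 genes passed in either direction. In the list of uptake, reduction and cytosolic chaperones, with 5 tested of 9, the smallest p-values were those of the metal carrier Slc39a8, at 0.551 ± 0.0981 RPKM in Nlrc4-T337S against 0.858 ± 0.0625 in wild type, and of the iron chaperone Pcbp1, at 43.9 ± 4.02 and 51.4 ± 3.52. The median log2 difference of the tested genes was -0.23. By S100g level, Ncoa4 and the metal carrier Slc39a14 were higher in the high libraries without overlap, beside 2.91% of all tested genes. Slc39a14 was at 22.6 to 36.1 RPKM in the low and 39.0 to 47.5 in the high ones. The 3 iron regulatory protein genes had a median log2 difference of 0.11, and Ireb2, which encodes iron regulatory protein 2, was at 28.5 to 38.9 RPKM in the low and 50.3 to 57.9 in the high libraries. Aco1, which encodes iron regulatory protein 1, was at 61.1 to 76.9 and 55.7 to 62.1 RPKM and overlapped, and Fbxl5, which targets these proteins for breakdown, was at 41.5 to 57.1 and 40.6 to 48.1.

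In the list of mitochondrial iron, iron-sulfur cluster and heme synthesis, with 14 tested of 15, the median log2 difference was -0.27. The smallest p-values were those of the heme synthesis enzymes Urod, at 13.9 ± 1.16 RPKM in Nlrc4-T337S against 19.1 ± 2.58 in wild type (limma adjusted p = 0.115), and Fech, at 8.95 ± 0.728 and 11.1 ± 0.216 (adjusted p = 0.144). Slc25a37, mitoferrin, was the 1 gene of that list that separated the S100g levels, beside 4.87% of all tested genes lower in this way. It was lower in the high libraries, at 8.18 to 9.45 RPKM against 13.3 to 19.5. In the list of heme export and breakdown, with 5 tested of 7, the smallest p-values were those of the heme carrier Slc48a1, at 1.11 ± 0.318 and 1.80 ± 0.272 RPKM, and of the exporter Abcg2, at 65.1 ± 6.52 and 54.8 ± 1.16.

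In the hypoxia-inducible factor system, 7 tested of 8, the smallest p-values were those of the oxygen-sensing hydroxylase Egln1, at 5.05 ± 0.936 RPKM in Nlrc4-T337S against 6.26 ± 0.101 in wild type, and of Vhl, which marks the factors for breakdown, at 3.87 ± 0.476 and 4.49 ± 0.212. Of the 10 targets, the smallest p-values were those of Slc2a1, a glucose carrier, at 1.80 ± 0.336 and 2.86 ± 0.457 RPKM (limma adjusted p = 0.115), and of Adm, adrenomedullin, at 0.475 ± 0.109 and 0.7996 ± 0.0721 (adjusted p = 0.139). With the S100g level as a term Slc2a1 passed (adjusted p = 0.0431), lower in Nlrc4-T337S.

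Of 11 genes of metal and calcium absorption, 10 were tested. Of these 10, 5 were higher without overlap in the high S100g libraries, beside 2.91% of tested genes. They were S100g itself, whose values set the levels and so fixed its separation, Trpv6, Atp2b1, Vdr and Slc30a10. Atp2b1, the calcium pump of the basolateral membrane, was at 17.5 to 28.9 RPKM in the low and 62.5 to 82.2 in the high libraries. Vdr, the vitamin D receptor, was at 35.1 to 52.1 and 63.6 to 83.7, and Slc30a10, a manganese exporter, at 4.95 to 12.5 and 36.0 to 47.5. The zinc carrier Slc39a4, the copper carrier Slc31a1, the copper pump Atp7a and the metallothioneins Mt1 and Mt2 overlapped between the levels. None of the 10 tested passed by genotype; the smallest p-values were those of Slc39a4, at 65.8 ± 17.2 RPKM in Nlrc4-T337S against 94.7 ± 10.9 in wild type, and of Slc31a1, at 100.3 ± 21.9 and 105 ± 9.87.

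Markers of position and of other cells were set beside these levels. Of the proximal list, Pdx1 and Onecut2 were higher without overlap in the high libraries, and Gata4 and Gata6 overlapped. Of the distal list, Slc10a2, the ileal bile acid transporter, was lower, at 0.743 to 1.51 RPKM in the low and 0.332 to 0.727 in the high libraries. Over all tested genes 2.91% were higher without overlap in the high libraries and 4.87% lower. By genotype, the smallest p-values of these lists were those of Gata4 (14.9 ± 2.58 RPKM in Nlrc4-T337S against 17.8 ± 1.32 in wild type), Pdx1 (6.25 ± 6.05 and 7.53 ± 7.89), Guca2a (75.0 ± 37.5 and 119 ± 41.9) and Slc10a2 (0.932 ± 0.512 and 0.774 ± 0.0942). The 10 enterocyte markers summed to 38442 to 47599 RPKM in the low and 31652 to 40470.0 in the high libraries. In the high libraries Alpi was higher and Sis and Anpep lower without overlap, beside those 2.91% and 4.87% of all tested genes. By genotype, 3 of the 4 tested erythroid genes were called lower in Nlrc4-T337S (Hbb-b1, Hba-a1 and Hba-a2). So were 4 of the 5 tested fibroblast and smooth muscle genes (Dcn, Sparc, Tagln and Acta2), beside 0.592% of all tested genes. The erythroid list summed to 15.3 to 30.6 RPKM in Nlrc4-T337S and 50.6 to 81.3 in wild type, and the fibroblast and smooth muscle list to 2.09 to 5.96 and 9.95 to 22.8, neither with overlap. The crypt list summed to 51.8 to 94.7 RPKM in Nlrc4-T337S and 83.2 to 94.96 in wild type, with overlap. Most of each sum came from Pcna, at 44.7 to 62.0 RPKM, which overlapped between the genotypes. Top2a, Ccnb1 and Cdk1 overlapped as well. Olfm4 did not overlap, at 1.53 to 17.6 RPKM in Nlrc4-T337S and 18.7 to 23.6 in wild type. Mki67, Mcm2, Mcm5 and Lgr5, the last of which was not tested, were also lower in Nlrc4-T337S without overlap. Over all tested genes 17.3% were lower in this way. The median log2 difference of the 8 tested crypt genes was -0.82, and 0 passed. The part of other cell types in the levels of the iron handling genes was not tested.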

How the data were processed

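Per the file headers, reads were mapped to mm9 with TopHat 2.1.0 and the authors computed RPKM in Partek 6.16.0606 (TopHat2 2.1 in the submitters' processing notes). Which gene models were used is not stated. The count of quality-passing reads and the mapped fraction per library are as deposited. The kit named in the labels' protocols, TruSeq RNA, keeps no strand, so overlapping antisense genes cannot be told apart. RPKM is not a count, so log2(RPKM + 0.5) was tested for the 10987 of 22987 genes averaging 0.5 RPKM or more, by limma 3.58.1 (R 4.3.3) with a trended prior variance, two-sided, with Benjamini-Hochberg adjustment over all tested genes at 0.05. Fold changes on that scale understate the change of low genes. All 10 members passed the filter. The step was tested on simulated data that held no difference by S100g level, so that test does not cover such a difference. Gene positions and transcripts came from GENCODE M1 on NCBIM37. Figures were drawn with matplotlib 3.10.9.

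The members and lists were chosen with earlier results of these data known. From each list other than those of cell type markers, the genes that passed were named or, where none did, the 2 with the smallest p. The cell type marker lists did not follow this rule where no gene passed. The 5 genes nearest to Cybrd1 and to Slc40a1 were named. Genes named for separating the S100g levels were chosen after their values were seen. Replicates are numbered by accession, which pairs none of them. Alternatives were another pseudocount, filter, scaling or variance estimate, the S100g level as a term, values within each level, and leaving out each library. Flvcr1, Flvcr2 and Muc3 of the lists were not analysed here.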

Additional observations from a re-analysis of the deposited data

How the results depend on the processing

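With a pseudocount of 0.1 or 1, no filter, a filter at a mean RPKM of 2, another scaling, robust variance estimation or the S100g level as a term, 0 members passed in either direction. Leaving out each library, 0 to 1 members passed as lower in Nlrc4-T337S without a covariate and 0 to 2 with the S100g level as a term, a combination chosen after seeing the data; 0 passed as higher. The cause was not tested. Without a covariate, leaving out 1 library moved the log2 difference of Slc40a1 from -1.17 to 1.15, of Slc11a2 from -0.68 to 0.14, of Cybrd1 from -0.23 to 2.04, of Heph from -0.053 to 0.11, of Fth1 from -0.65 to 0.16 and of Epas1 from -0.45 to 0.0019. With the S100g level as a term, every member except Heph was lower in Nlrc4-T337S in all 7 such fits, which share most of their libraries. Slc40a1 was at -1.73 to -0.71 in them and Heph at -0.11 to 0.16. Over all 7 libraries, Cybrd1 turned to -0.16 with the S100g level as a term and to -0.070 with that term and median-of-ratios scaling. Ftl1 turned to 0.036 with median-of-ratios scaling and to 0.0023 with the term added. The cause was not tested. Median-of-ratios scaling moved the median log2 difference of all genes from -0.15 to 0.01. Hfe, tried under the same alternatives after seeing the data, kept its direction throughout and lost its call with no filter (limma adjusted p = 0.112), where more genes were tested, and in 6 of the 7 fits that left out 1 library. At a filter of a mean RPKM of 2, Hmox1 and Hfe were not tested. No paired analysis was possible because the labels give no replicate numbers shared between the genotypes. Depth limits Cybrd1 in the low S100g libraries, where it stood at 0.0676 to 0.184 RPKM and 1 read per kilobase was worth 0.0126 to 0.0251 RPKM.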
